A study of Mus musculus with 2 samples.

Results

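Interferons are secreted alarm proteins, and 9 of their genes are described here in single cells of the mouse uterus: the ligands Ifnb1, Ifne and Ifng, and the receptor chains Ifnar1, Ifnar2, Ifngr1, Ifngr2, Ifnlr1 and Il10rb. They were chosen by symbol, all 9 were found among 32285 listed genes in both libraries, and earlier results of these data were known when they were chosen. Female mice were 6 months old, and their uteri were digested with collagenase and profiled by droplet-based 3-prime single-cell RNA sequencing. By their titles, 1 library is Prickle1 f/f (control) and the other is Prickle1 f/f Ltf-cre (cKO), so both carry floxed Prickle1 alleles and the second also carries a Cre driven by Ltf, the lactoferrin gene, which is transcribed in uterine epithelium and in neutrophils. Each library is 1 pool of 3 mice. The genotype entry, unlike the titles, calls both C57BL/6J wild-type, and the stage of the oestrous cycle is not given in the sources used here. With 1 library a group there is no replicate, so no test is given, and the genotype cannot be told apart from the animals, the digestion or the library.

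The transcripts were counted as UMIs (unique molecular identifiers). A barcode counted as a cell when it had 500 genes or more and no more than 20% of its UMIs from mitochondrial genes, which left 3653 in the library labelled control (median 4650 UMIs) and 4950 in the library labelled cKO (median 5944), with 5 barcodes in common. A cell was put in a class when it had a UMI of that class's gate and none of the other 5: Epcam (epithelial), Pdgfra (stromal), Actg2 (muscle), C1qa (macrophage), Flt3 (dendritic), and Cd3e or Ncr1 (lymphoid). In control and cKO order the classes held 961 and 135 epithelial, 623 and 1464 stromal, 289 and 535 muscle, 228 and 110 macrophage, 42 and 134 dendritic, and 155 and 427 lymphoid cells. Another 170 and 249 cells had several gates, and 1185 (32.4%) and 1896 (38.3%) had none. Of the Epcam class, 928 control cells (96.6%) but only 82 cKO cells (60.7%) had UMIs of at least 3 other epithelial markers, and 39 of the 135 cKO cells had at least 3 stromal markers. The members and the pathway lists of epithelial cells are therefore also given for those 928 and 82 cells, called the stricter epithelial class, a choice made after the data were seen. That class is still mixed in cKO: 29 of its 82 cells had at least 3 stromal, 21 at least 3 muscle and 27 at least 3 mesothelial markers, against 21, 20 and 9 of 928 in control. Its median depth was 24014.5 UMIs in cKO and 6368.5 in control. The targeted gene, Prickle1, had 100 UMIs in 85 control cells (2.65 CPM, counts per 1000000 UMIs) and 436 in 329 cKO cells (8.24 CPM), and 15 and 16 UMIs in the Epcam classes (0.865 and 3.93 CPM). Both Epcam levels were below those of barcodes with at most 100 UMIs, taken as cell-free, 1.55 CPM in control and 5.69 in cKO. Prickle1 was not lower in the library labelled cKO, and since the deleted exons are not given in the sources used here, 3-prime tags may lie outside them and do not check the label.

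Type I interferons, among them interferon beta (Ifnb1) and interferon epsilon (Ifne), signal through a receptor built from IFNAR1 and IFNAR2. Interferon gamma (Ifng), the type II interferon of T and NK cells, uses IFNGR1 with IFNGR2, and the type III interferons (lambda) use IFNLR1 with IL10RB, a chain shared with the receptors for interleukins 10 and 22. Most type I genes are switched on by viral or bacterial nucleic acids through IRF3, IRF7 and NF-kappa-B, whereas Ifne is made constitutively by the epithelium of the female reproductive tract and follows ovarian hormones. The receptors act through JAK kinases and STAT factors to turn on response genes such as Isg15, the Ifit family and Cxcl10.

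The genes lie on 3 chromosomes (GENCODE M21 on GRCm38). Ifnb1 (ENSMUSG00000048806, chromosome 4, 88522025 to 88522774, minus strand) and Ifne (ENSMUSG00000045364, chromosome 4, 88879538 to 88880201, minus strand) are genes of 1 exon in the type I cluster. Ifng (ENSMUSG00000055170) has 4 exons on chromosome 10, from 118441046 to 118445892 on the plus strand, and Ifngr1 has 7 exons on the same chromosome, from 19591949 to 19610229. Ifnlr1 has 7 exons on chromosome 4, from 135686287 to 135708181. The other 4 receptor genes stand in a row on the plus strand of chromosome 16, over 192841 bases: Ifnar2 (91372783 to 91405589), Il10rb (91406164 to 91425834), Ifnar1 (91485238 to 91507441) and Ifngr2 (91547072 to 91565623). Ifnar2 and Il10rb are 574 bases apart, and a model listed as Gm21970 overlaps both on the same strand.

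The 250 bases upstream of the RefSeq start of the 3 ligand genes (GRCm38.p6, each 5′ to 3′ on the gene's own strand) are printed to show the letters next to the start of each ligand gene. Windows were found for 8 of the 9 members, not for Il10rb. Capitals mark 3 kinds of match: the IRF core AANNGAAA, the kappa-B consensus and the gamma-activated site TTCNNNGAA, each searched on both strands. The windows are chr4:88522795-88523044 (minus strand) for Ifnb1, chr4:88880202-88880451 (minus strand) for Ifne and chr10:118440796-118441045 (plus strand) for Ifng.
Ifnb1: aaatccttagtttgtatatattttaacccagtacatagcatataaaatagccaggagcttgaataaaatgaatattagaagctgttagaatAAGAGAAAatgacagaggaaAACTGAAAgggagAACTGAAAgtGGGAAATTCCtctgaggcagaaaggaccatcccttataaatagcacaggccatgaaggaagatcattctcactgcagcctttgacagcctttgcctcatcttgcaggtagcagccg
Ifne: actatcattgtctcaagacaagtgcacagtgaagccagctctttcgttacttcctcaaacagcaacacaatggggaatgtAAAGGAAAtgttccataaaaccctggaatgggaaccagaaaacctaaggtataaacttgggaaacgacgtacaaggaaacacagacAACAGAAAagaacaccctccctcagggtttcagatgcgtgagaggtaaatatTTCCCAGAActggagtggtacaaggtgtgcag
Ifng: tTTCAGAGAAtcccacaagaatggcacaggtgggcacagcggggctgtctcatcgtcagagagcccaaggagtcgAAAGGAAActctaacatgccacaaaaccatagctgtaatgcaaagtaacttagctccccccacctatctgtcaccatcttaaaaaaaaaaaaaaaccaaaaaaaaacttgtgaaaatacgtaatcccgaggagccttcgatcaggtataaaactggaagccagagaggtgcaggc
The Ifnb1 window held 3 IRF cores, the first starting 159 bases before the start, and a kappa-B match, GGGAAATTCC, 116 to 107 bases before it. Ifne held 2 IRF cores and 1 gamma-activated site, and Ifng held 1 of each. Of 32851 windows of the same length, 21.3% held an IRF core, 4.20% at least 2 and 0.849% at least 3, while 7.25% held a kappa-B match and 7.02% a gamma-activated site. At least 3 cores together with a kappa-B match were found in 12 windows (0.0365%). That combination is what the Ifnb1 window itself holds, so the share is no test of that window. A longer interferon-regulatory element with a second GAAA, the first one searched, is in 2.98% of windows and in none of the 8 member windows, and the core was added after that result. Matches overlap no other match in these 3 windows, and they describe letters only.

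Ifnb1 was an epithelial transcript in the library labelled control and almost missing from the library labelled cKO. It had 1083 UMIs in 96 control cells (2.63% of cells) and 8 UMIs in 2 cKO cells. Of the control UMIs, 889 in 79 cells lay in the Epcam class, 82.1% (79.7 to 84.3, exact binomial 95% interval), or 51.3 CPM of the class (47.9 to 54.7, exact Poisson). Another 160 UMIs lay in 6 cells with several gates, 31 in 9 cells with none, and 3 in 2 C1qa cells. The stromal, muscle, dendritic and lymphoid classes held 0 UMIs in either library. All intervals here cover counting error only and say nothing of the spread between mice.

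Free RNA was also high in Ifnb1: barcodes with at most 100 UMIs, taken as cell-free, had 20.2 and 0.438 CPM in control and cKO. The control C1qa class, with 1.59 CPM, was below that level, and stromal cells had 0 UMIs among 8074492. Of the 96 control cells, 94 had a UMI of an epithelial marker and 90 of at least 3, and none had a lymphoid or neutrophil marker. Of the plasmacytoid dendritic list (Siglech, Bst2, Tcf4 and Ly6d), 76 had a marker and 5 at least 3, of the macrophage list 55 and 3, of the dendritic list 22 and 0, and of the stromal list 19 and 2. Siglech had 0 UMIs in the control Epcam class, which holds 79 of the 96 cells. None of them exceeded the doublet score limit of 0.25.

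The Epcam class of the library labelled cKO held 0 Ifnb1 UMIs among 4074642, which allows up to 0.736 CPM at a floor of 3 UMIs. Control was thus at least 69.6-fold higher there, a log2 ratio of at most -6.12. In the stricter epithelial class the values were 888 UMIs (51.8 CPM) and 0 UMIs, and the log2 bound was -5.94. The 2 cKO cells with Ifnb1 were both C1qa cells, with 5 UMIs among 14522 and 3 among 21146 (8.18 CPM of the class, 3.53 to 16.1). The C1qa class therefore ran the other way, from 3 control to 8 cKO UMIs, a log2 ratio of 2.36 (0.30 to 4.91), and 5 of the 8 UMIs were in 1 cell. With cells of other gates admitted it was -2.98.

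Few cells carried most of the Ifnb1 transcript. The cell with the most had 127 UMIs (11.7% of the control total) among 128923 of all genes, the next had 105 among 62460, and the top 5 held 41.2%. The 30 cells with at least 10 UMIs held 83.5%, while the median bearing cell had 3 and 25 cells had 1. The 5 cells with the most, 64 to 127 UMIs, all had at least 44815 UMIs of all genes, so the highest counts were in deep cells. With each cell thinned to 1000 UMIs, 32 of 954 control Epcam cells (3.35%, 2.31 to 4.70) kept an Ifnb1 UMI, against 8.22% before thinning, and 0 of 135 cKO cells did, which allows up to 2.22%.

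**Figure D1:**
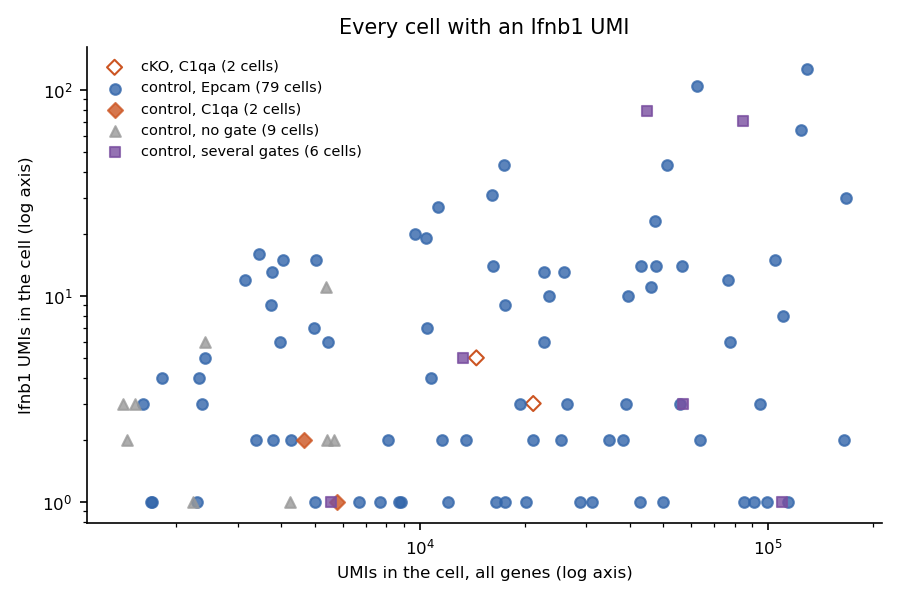
Each point is 1 cell with an Ifnb1 UMI, with its total UMIs on the x axis and its Ifnb1 UMIs on the y axis, both log axes; shape and colour give the gate and open symbols are cKO. The 96 control cells run from 1 to 127 Ifnb1 UMIs, the 5 highest in cells of at least 44815 UMIs, and the 2 cKO cells, with 5 and 3 UMIs, are C1qa cells.

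Ifne, the hormone-regulated interferon of this epithelium, was epithelial in both libraries, and the direction of its difference within the Epcam class depended on how cells were weighted. Control held 110 UMIs in 77 cells, 101 of them (91.8%, 85.0 to 96.2) in 69 Epcam cells. The library labelled cKO held 28 UMIs in 9 cells, 27 of them (96.4%, 81.7 to 99.9) in 8 Epcam cells. The Epcam classes had 5.82 CPM (4.74 to 7.08) and 6.63 CPM (4.37 to 9.64), a log2 ratio of 0.19 (-0.48 to 0.81), or -0.41 with TMM scaling. As a mean over cells, each weighing the same, the levels were 7.81 and 1.55 CPM (log2 -2.33), and after thinning to 1000 UMIs 9 of 954 and 0 of 135 cells had a UMI. In cKO, 15 of the 27 UMIs (55.6%) came from 1 cell of 160731 UMIs, and without the top cell of each library the log2 ratio was -0.81. In the stricter class the levels were 5.89 and 7.59 CPM. The other 5 classes held 1 UMI, in a cKO stromal cell, cells with several gates held 4 in control and cells with no gate 5 in control, and cell-free barcodes held 1.16 and 0.438 CPM.

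Over all cells Ifne was lower in the library labelled cKO, 0.53 against 2.92 CPM (log2 -2.46, -3.12 to -1.85). The share of Epcam cells moved with that difference, 26.3% of control and 2.73% of cKO cells. Ifne and Ifnb1 were mostly in different cells: 10 control cells had both, and 12 of the 110 Ifne UMIs (10.9%) were in Ifnb1-bearing cells. All 77 control Ifne cells had at least 3 epithelial markers. The receptors for oestrogen and progesterone, Esr1 and Pgr, had log2 ratios of -0.12 and -0.13 in the Epcam class, and 0.03 and -0.03 in the stricter one.

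Ifng was sparse, and its level in the Cd3e or Ncr1 class depended on the gate. That class had 6 UMIs in 5 of 155 control cells (8.08 CPM, 2.97 to 17.6) and 18 in 8 of 427 cKO cells (7.76 CPM, 4.60 to 12.3), a log2 ratio of -0.06 (-1.45 to 1.56). With at least 2 UMIs of the gate the levels were 13.0 and 4.41 CPM, a log2 ratio of -1.56. Most Ifng lay elsewhere. Cells with no gate held 14 of 27 control UMIs and 61 of 129 cKO UMIs, against 22.2% (8.62 to 42.3) and 14.0% (8.48 to 21.2) in the lymphoid class. Cell-free barcodes held 5.43 CPM in control, inside the lymphoid interval of that library, and 3.06 CPM in cKO, below it.

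Marker lists gave more lymphoid cells than the gate did. In all, 14 of 20 control and 50 of 75 cKO cells with Ifng had a lymphoid marker, as did 6 of 6 and 18 of 23 of those with at least 2 Ifng UMIs. Other lists were present as well: of the 75 cKO cells 35 had a stromal, 35 a muscle and 42 a plasmacytoid dendritic marker. At least 3 lymphoid markers were in 23 of them, 3 stromal in 21 and 3 muscle in 10, against 8, 5 and 0 of the 20 control cells. The 400 cKO cells with no gate but at least 2 lymphoid markers held 30 of the 61 UMIs (11.5 CPM), and the 77 such control cells held 5 of 14 (11.0 CPM). The level was as high in the 256 cKO cells with no gate and at most 1 marker of any list, which held 11 of the 61 UMIs (12.8 CPM), while 5 and 3 UMIs were in cells with at least 3 stromal or muscle markers. With only the cells of no gate and at least 2 lymphoid markers added, the lymphoid class held 40.7% of control and 37.2% of cKO Ifng UMIs, and the log2 ratio was 0.09. Stromal cells had 4 and 15 UMIs (0.495 and 0.591 CPM), below the cell-free level, each cKO UMI in a cell of its own.

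The Epcam class of the library labelled cKO had 12 Ifng UMIs in 3 cells and that of control had 0, a log2 ratio of at least 4.09 at the floor of 3 UMIs. Of the 12 UMIs, 8 were in cells with at least 2 lymphoid markers, and the stricter epithelial class held 0 in both libraries. The cKO lymphoid interval overlaps those of the Epcam (1.52 to 5.14), muscle (1.02 to 7.32) and Flt3 (0.561 to 5.27, from 4 UMIs) classes, and the Epcam class came first as a mean over cells (10.7 CPM) and after thinning (7.41 CPM). All 5 UMIs of the cKO muscle class were in 1 cell, which had at least 2 lymphoid markers. Over all cells Ifng was 0.717 CPM in control and 2.44 CPM in cKO (log2 1.77, 1.16 to 2.42). Lymphoid-class cells were 4.24% of control and 8.63% of cKO cells.

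**Figure D2:**
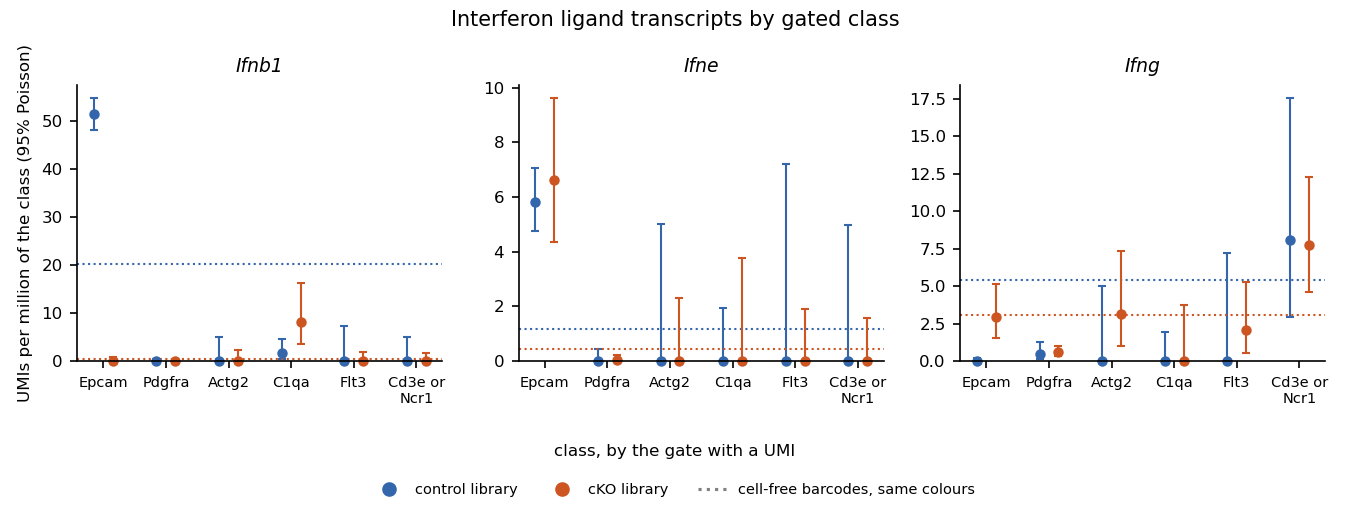
Points give the CPM of each gated class (y axis, linear) for the 3 ligands in control and cKO, with exact Poisson 95% bars, and dotted lines give cell-free barcodes. Ifnb1 stands at 51.3 in control Epcam cells and at 0 in cKO ones, Ifne is in the Epcam class of both, and Ifng is sparse with wide bars, at 8.08 and 7.76 in the Cd3e or Ncr1 class.

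Of the other interferon genes, the type III ligands were the most frequent in control. Ifnl2 and Ifnl3, 2 interferon lambda genes, had 35 and 68 UMIs in control barcodes and 0 and 1 in cKO. Of their UMIs in cells, 93.8% of Ifnl2 (7 of 9 cells) and 90.9% of Ifnl3 (15 of 19 cells) lay in cells that also had Ifnb1. The 16 other type I genes had 43 control and 32 cKO UMIs in all, at most 23 for 1 gene (Ifnz, control) and 18 (Ifnab, cKO). Genes of the interferon alpha family are near-identical copies, so their counts are uncertain.

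Both chains of the type I receptor were highest in white blood cells. Ifnar1 had 103 CPM in control C1qa cells (89.4 to 119), 111 in Flt3 cells (84.4 to 144) and 108 in lymphoid cells (85.4 to 134), whose intervals overlap. The epithelial, stromal and muscle classes followed with 28.4, 27.9 and 20.4 CPM, again overlapping, close to the 26.4 CPM of cell-free barcodes. In the library labelled cKO the order was C1qa cells (132 CPM, 110 to 157), lymphoid cells (94.8), Flt3 cells (90.0), then epithelial (36.8), stromal (35.7) and muscle cells (32.0), with 37.6 in cell-free barcodes. In the lymphoid class widened by cells of at least 2 lymphoid markers, Ifnar1 had 125 and 154 CPM, the highest of the classes in both libraries. The 3 white cell classes thus stood apart from the other 3, and the highest control class was 3.93-fold above the Epcam class. In no class did Ifnar1 differ 2-fold between libraries: the log2 ratios ran from -0.31 in Flt3 cells to 0.65 in muscle cells. The Epcam ratio, 0.38 (0.10 to 0.64), turned to -0.22 with TMM scaling and to -0.18 in the stricter class.

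Ifnar2 had one leading class. It had 164 CPM in control C1qa cells (147 to 184) and 276 in cKO ones (244 to 311), a log2 ratio of 0.75 (0.51 to 0.99). Lymphoid cells followed with 86.2 and 87.1 CPM, stromal cells with 73.1 and 57.6, and Flt3 cells with 58.6 and 54.0. Epithelial cells, the class with Ifnb1, had the lowest control level, 19.1 CPM (17.1 to 21.3), overlapping muscle cells at 25.9, and 35.3 in cKO (log2 0.89, 0.60 to 1.18). In the stricter class it had 18.6 and 31.2 CPM (log2 0.75, 0.42 to 1.06). Cell-free barcodes held 59.3 and 74.4 CPM, above the epithelial, muscle and Flt3 levels of the same library and, in cKO, also above the stromal level.

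Ifngr1, the ligand-binding chain of the interferon gamma receptor, was highest in the lymphoid class. Lymphoid cells had 1542 CPM in control (1454 to 1634) and 1839 in cKO (1785 to 1895), 11.9- and 7.50-fold above the next class. The transcript was in 143 of 155 and 414 of 427 lymphoid cells, and after thinning to 1000 UMIs still in 72.5% (64.8 to 79.5) and 81.4% (77.3 to 85.0). Thinned shares in the other classes ran from 3.11% in control C1qa cells to 23.0% in cKO Epcam cells. Cell-free barcodes held 105 and 341 CPM, above the stromal, muscle and C1qa classes of control and above every gated class of cKO but the lymphoid one.

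Cells with lymphoid markers also carried much of the Ifngr1 counted outside the lymphoid class. Cells with no gate had 340 CPM in control and 1072 in cKO, and 46.0% and 52.7% of those UMIs were in cells with at least 2 lymphoid markers. Cells with at most 1 marker of any list also held many: 101 control cells had 263 of the 1642 UMIs (967 CPM), and 256 cKO cells had 1706 of the 11064 (1985 CPM). In muscle cells Ifngr1 had 31 and 267 UMIs (42.2 and 168 CPM), a log2 ratio of 1.99 (1.45 to 2.57), and 124 of the 267 were in 9 cells with at least 2 lymphoid markers. Without such cells the muscle levels were 35.6 and 93.6 CPM and the log2 ratio 1.39. Flt3 cells went from 127 to 245 CPM (log2 0.95, 0.57 to 1.35), and without such cells from 127 to 136 (log2 0.10). Stromal cells had 57.0 and 75.7 CPM, and C1qa cells 59.9 and 96.1.

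In the Epcam class the direction of Ifngr1 depended on the cells admitted. It was 130 CPM in control and 163 in cKO (log2 0.33, 0.20 to 0.45), but -0.26 with TMM scaling, and -0.24 without cells of at least 2 lymphoid markers. In the stricter epithelial class it was 126 CPM (121 to 131) in control and 44.4 (37.8 to 51.9) in cKO, so the log2 ratio was -1.50 (-1.74 to -1.27). Of the 665 cKO UMIs, 245 were in 14 cells with at least 2 lymphoid markers.

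Ifngr2, the signalling partner, had another order. Control Flt3 cells had 133 CPM (103 to 169), C1qa cells 95.5 (82.0 to 110) and epithelial cells 81.9 (77.7 to 86.3), the first overlapping the second and the second the third. Lymphoid cells had 49.8, muscle cells 20.4 and stromal cells 19.1, with 38.8 in cell-free barcodes. In the library labelled cKO, C1qa cells led with 200 CPM (173 to 231), and their log2 ratio to control was 1.07 (0.77 to 1.37), or 0.83 with TMM scaling. Epithelial cells had 50.3 CPM, lower than control by a log2 ratio of -0.70 (-0.92 to -0.49), and -0.57 (-0.79 to -0.36) in the stricter class. With TMM scaling the Epcam ratio was -1.29, past 2-fold.

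Ifnlr1, the chain that makes a cell responsive to interferon lambda, was an epithelial transcript. Control Epcam cells had 183 UMIs in 130 cells (10.6 CPM, 9.08 to 12.2), and the other gated classes held 2 or fewer UMIs each. The library labelled cKO had 11 UMIs in 11 Epcam cells (2.70 CPM, 1.35 to 4.83), a log2 ratio of -1.97 (-2.99 to -1.09), and -1.78 (-2.81 to -0.90) in the stricter class. Cell-free barcodes held 3.88 and 0.438 CPM.

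Il10rb, its partner, was highest in C1qa cells, with 171 CPM in control (153 to 191) and 302 in cKO (268 to 338), giving a log2 ratio of 0.82 (0.58 to 1.05). Flt3 cells had 89.9 and 76.6 CPM, lymphoid cells 49.8 and 65.9, and the epithelial, stromal and muscle classes between 9.54 and 21.6, below the 28.7 and 39.8 of cell-free barcodes. The stricter epithelial class had 13.5 and 15.5 CPM (log2 0.19, -0.26 to 0.62). The chain's other partner, Il10ra, had a log2 ratio of 0.26 in C1qa cells, where Il10 had 0.25.

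**Figure D3:**
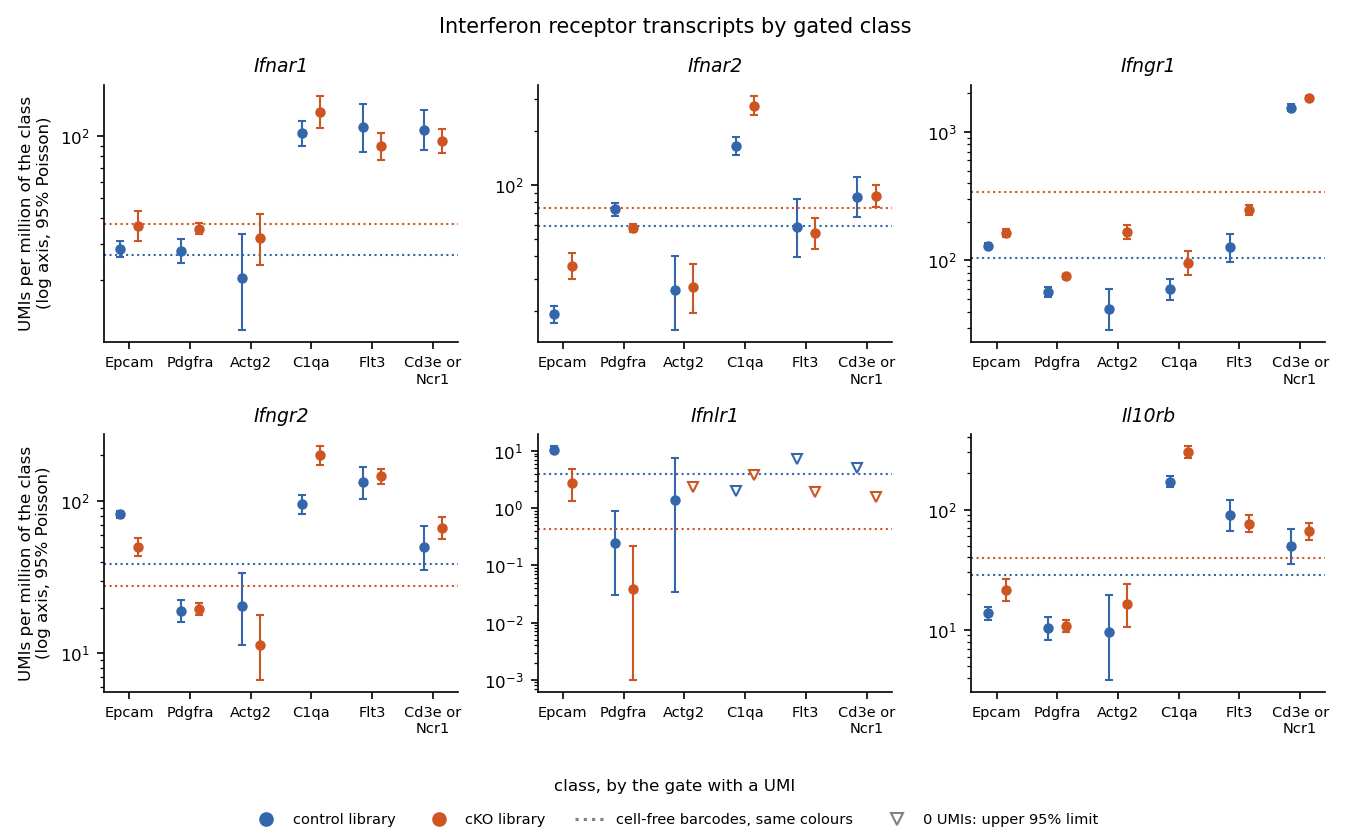
Points give the CPM of each gated class (y axis, log) for the 6 receptor chains in control and cKO, with exact Poisson 95% bars; open triangles mark the upper limit of a class at 0 UMIs and dotted lines the cell-free barcodes. Ifngr1 peaks at 1542 and 1839 in the Cd3e or Ncr1 class, Ifnlr1 in Epcam cells, and Ifnar2 and Il10rb in C1qa cells.

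Cells with UMIs of both chains of a receptor were common only at full depth. Ifnar1 with Ifnar2 was seen in 65 of 228 control C1qa cells (28.5%), 18 of 42 Flt3 cells (42.9%), 102 of 961 Epcam cells (10.6%) and 18 of 155 lymphoid cells (11.6%). After thinning to 1000 UMIs these shares were 1.33% (0.28 to 3.85), 2.38% (0.06 to 12.6), 0.105% (0.0027 to 0.583) and 1.96% (0.41 to 5.62), too few to rank the white cell classes. Ifngr1 with Ifngr2 in thinned lymphoid cells was 4 of 153 in control and 22 of 424 in cKO (5.19%, 3.28 to 7.75). Ifnlr1 with Il10rb was seen together in 50 control (5.20%) and 7 cKO (5.19%) Epcam cells and in 1 cell of the other 5 classes, and in none of 954 and 135 thinned Epcam cells.

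The members' differences between libraries can be read against all genes of the same class with at least 10 UMIs. In the Epcam class 1 of 9 members was at least 2-fold up in cKO (Ifng), where 31.7% of all genes were, and 2 of 9 at least 2-fold down (Ifnb1 and Ifnlr1), where 10.4% were. Ifngr2 passes 2-fold down as well with TMM scaling. In the stricter class 3 of 8 were down (Ifnb1, Ifngr1 and Ifnlr1) and 0 up, where 11.5% and 29.9% of all genes were. Ifng was at 0 in the stricter epithelial class of both libraries. TMM scaling, which centres each class, shifts log2 ratios down by 0.59 in Epcam, 0.24 in C1qa, 0.20 in Flt3 and 0.10 in lymphoid cells. In the C1qa class 2 of 6 were up (Ifnb1 and Ifngr2, where 13% of all genes were) and 0 down (6.54%). With TMM scaling Ifngr2 no longer passes 2-fold there. In muscle 1 of 5 was up (Ifngr1, where 10.8% of all genes were) and 0 down (5.73%). No member passed 2-fold among 6 in stromal cells (7.33% of genes up, 8.8% down), 5 in Flt3 cells (22.9% and 6.13%) or 6 in lymphoid cells (11.9% and 4.34%). Over all cells 2 of 9 were up (Ifng and Ifngr1; 14.1%) and 3 down (Ifnb1, Ifne and Ifnlr1; 13.5%). The median log2 ratio over members was 0.33 in Epcam cells, where it was 0.49 over all genes (2 of the 9 values are bounds), and 0.78 in C1qa cells, where it was 0.19.

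The genes that answer type I interferon were lower in every class of the library labelled cKO. The list held 14 genes, 12 of them in the files, and its direction was known from earlier results of these data. In the Epcam, stromal, muscle and Flt3 classes 12 of 12 were at least 2-fold down, in lymphoid cells 11 of 12, and in C1qa cells 8 of 12. Of all genes, 10.4%, 8.8%, 5.73%, 6.13%, 4.34% and 6.54% were down in the same order. The median log2 ratios were -4.10, -3.93, -3.32, -4.53, -3.90 and -1.14 in that order, where the medians of all genes ran from -0.03 to 0.49. Isg15, a ubiquitin-like tag, went from 685 to 23.3 CPM in Epcam cells and from 953 to 434 in C1qa cells. Rsad2, the antiviral protein viperin, went from 432 to 10.3 and from 5484 to 2163, and Ifit1, which binds foreign RNA caps, from 362 to 11.3 and from 1401 to 357. Cxcl10, a T cell attractant, had log2 ratios of -2.49 in Epcam, -6.62 in Flt3 and -0.74 in C1qa cells. Cell-free barcodes moved the same way, Isg15 from 387 to 42.9 CPM and Rsad2 from 407 to 49.0, and the part of free RNA in the class values was not tested.

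Genes that answer interferon gamma were lower less uniformly. Of the members of that list with enough UMIs, 7 of 12 were at least 2-fold down in Epcam cells, 6 of 11 in stromal, 3 of 8 in muscle, 3 of 10 in C1qa, 8 of 12 in Flt3 and 6 of 10 in lymphoid cells, and none was 2-fold up. Of all genes, 10.4%, 8.8%, 5.73%, 6.54%, 6.13% and 4.34% were down in these classes. The list's medians were -1.04, -1.20, -0.75, -0.39, -2.25 and -1.27. Iigp1, an immunity-related GTPase, had log2 ratios of -3.35 in Epcam, -5.63 in Flt3 and -2.38 in C1qa cells. Cxcl9, a classic interferon gamma target, had -3.47 in Flt3, 0.28 in Epcam and -0.27 in C1qa cells. In the stricter epithelial class 8 of 12 were at least 2-fold down and none up (11.5% and 29.9% of all genes), with a median of -1.60. Many genes of this list also answer type I interferon.

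**Figure D4:**
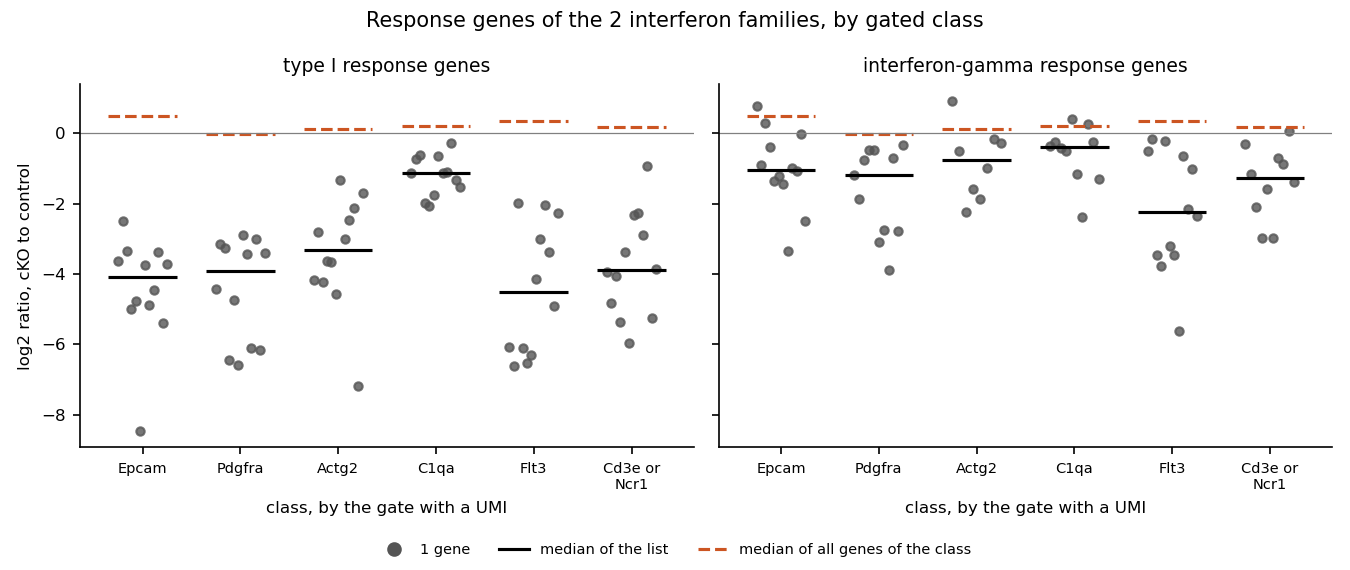
Each point is the log2 ratio of cKO to control of 1 gene in 1 gated class (x axis) for the type I response list (left) and the interferon gamma response list (right); black lines are list medians and dashed lines the medians of all genes of the class. The type I list has medians from -4.53 (Flt3) to -1.14 (C1qa), and 1 muscle value is a bound against 0 UMIs.

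The genes between receptor and response differed by kind. Stat2 and Irf9, which act together in the complex that type I receptors switch on, had log2 ratios of -2.80 and -1.09 in Epcam cells and -0.47 and -0.51 in C1qa cells. The kinase genes moved less in one direction: Jak1 had 0.76, Tyk2 -0.36 and Jak2 -1.63 in Epcam cells. In the stricter epithelial class Stat2 had 106 CPM in control and 13.2 in cKO, and the log2 ratios were -1.52 for Irf9, 0.37 for Jak1, -0.71 for Tyk2 and -1.72 for Jak2. Of 8 brakes on the pathway, Usp18, which is itself a response gene and detaches ISG15, was down in all 6 classes, by log2 ratios from -3.86 to -1.54. Of the other 7, none passed 2-fold in Epcam, stromal or lymphoid cells, nor in the stricter epithelial class. Socs1 was down in C1qa (-1.32) and Flt3 cells (-1.03), Socs3 was down in Flt3 cells (-1.66), and Ptpn6 was up in C1qa (1.57) and muscle cells (2.58, from 1 and 13 UMIs). With Usp18 counted, 1 of 8 brakes was down in Epcam, stromal, muscle and lymphoid cells, 2 in C1qa and 3 in Flt3 cells, where 10.4%, 8.8%, 5.73%, 4.34%, 6.54% and 6.13% of all genes were. The 1 of 8 up in C1qa and in muscle cells stands beside 13% and 10.8% of all genes.

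Sensors and factors that induce interferons also differed, but this list is not separate from the response lists. Irf7 is also in the type I response list, and Irf1 in the interferon gamma list. The part of a response to interferon in these values was not tested. In the Epcam class 8 of 18 were at least 2-fold down (10.4% of all genes) and 3 up (31.7%). The RNA sensors Ifih1 and Ddx58 had log2 ratios of -4.36 and -1.98, Irf7, a factor that amplifies type I interferon, -3.74, and Zbp1, a sensor of left-handed nucleic acid, -3.54. Those up were Cgas, a DNA sensor (3.23), and the adaptors Mavs (1.27) and Myd88 (1.19). In CPM, Epcam cells went from 1.90 to 17.9 for Cgas, from 5.31 to 12.8 for Mavs and from 13.2 to 30.2 for Myd88, while stromal cells had 37.6 and 26.8, 11.6 and 13.8, and 42.2 and 42.3. The stricter epithelial class, still mixed with stromal markers in cKO, had log2 ratios of 1.39 for Mavs and 1.12 for Myd88, and Cgas UMIs of 26 in control and 57 in cKO (95% interval of the log2 ratio 2.71 to 4.13). The part of stromal transcripts in these values was not tested. In that class 8 of 18 inducers were again at least 2-fold down and 3 up, where 11.5% and 29.9% of all genes were. Irf3 and Tbk1, which are present before induction, had 0.21 and 0.58. Among regulators of Ifng in lymphoid cells, Tbx21 and Eomes, its T and NK cell factors, had -0.24 and 0.01, Stat4 had -0.09, and 1 of 7 was 2-fold down (4.34% of all genes) and 0 up (11.9%). Il12b, a subunit of interleukin 12, had 0 UMIs in control and 41 in cKO C1qa cells, the latter in 4 cells. Its log2 ratio was 4.72 at the floor of 3 UMIs.

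Within the library labelled control, Epcam cells with Ifnb1 had more type I response transcripts than other Epcam cells. The 79 bearing cells were deeper (median 17602 against 5770.5 UMIs for 882 others) and had more mitochondrial UMIs (median 7.09% against 4.39%), and the part of either in the following values was not tested. Of the type I list, 11 of 12 were at least 2-fold higher, with a median log2 ratio of 2.26, where 2.7% of 13541 genes were higher, 16.8% lower and the median was -0.23. Ifit1 had 1147 against 216 CPM, Isg15 2193 against 404, Cxcl10 929 against 176 and Ifit2 205 against 17.1, a ratio of 12.0 (10.3 to 14.0). After thinning to 1000 UMIs, Ifit1 was in 63.3% (51.7 to 73.9) of bearing cells and in 14.2% (11.9 to 16.7) of the others. The thinned intervals overlapped for Irf7 (12.7%, 6.24 to 22.0, against 11.9%, 9.82 to 14.2) and Ifi44 (16.5%, 9.06 to 26.5, against 7.54%, 5.88 to 9.50). They also overlapped for Usp18, and for the other genes of the list they did not.

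The bearing cells did not differ 2-fold in any receptor chain. Ifnar1 had 23.5 against 29.3 CPM, Ifnar2 20.9 against 18.7, Ifngr1 175 against 122, Ifngr2 78.6 against 82.5 and Ifnlr1 12.5 against 10.2, and 0 of 7 members with enough UMIs passed 2-fold, where 2.7% of all genes were higher and 16.8% lower. Among 18 inducers 6 were at least 2-fold higher: Ifih1 had 450 against 77.6 CPM, Zbp1 173 against 55.7, Ddx58 160 against 75.9 and Tlr3, the sensor of double-stranded RNA, 18.4 against 7.66. Irf7, also in the type I response list, was another of the 6, with 172 against 85.0 CPM. After thinning, 0 of 79 bearing cells and 8 of 875 others had a Tlr3 UMI, too few to compare. Irf3 had 22.0 against 26.1, and 1 inducer was at least 2-fold lower, Cgas, with 2 and 31 UMIs (0.734 against 2.12 CPM). Of the interferon gamma list 5 of 12 were higher, Gbp5 most, with 43.3 against 5.47 CPM. Cxcl9, with 0 and 14 UMIs, counted as lower only because 0 was set to 0.5 UMIs. A count of 0 allows up to 1.35 CPM, above the 0.958 CPM of the other cells, so no direction can be given for Cxcl9.

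Even the other control Epcam cells were far above the stricter epithelial class of cKO. Isg15 had 404 CPM in those control cells and 18.0 (13.9 to 23.0) in cKO, Ifit1 216 and 12.1, and Ifit3 74.5 and 0.562 (0.068 to 2.03). All 12 genes were ordered in this way, bearing cells first and cKO last. In the other control cells Isg15 was near the level of control cell-free barcodes and Rsad2 was below it. In the stricter cKO class both were below the level of cKO cell-free barcodes. The part of free RNA in these differences was not tested.

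**Figure D5:**
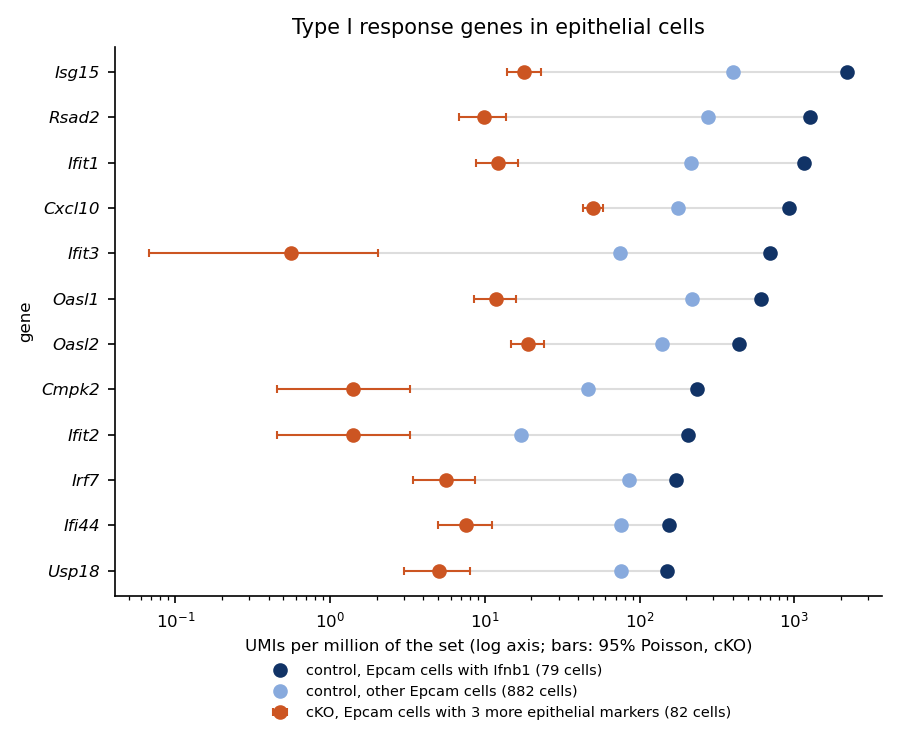
Points give the CPM (x axis, log) of the 12 type I response genes (y axis) in control Epcam cells with Ifnb1, other control Epcam cells, and cKO Epcam cells with at least 3 more epithelial markers, whose bars are exact Poisson 95% intervals. For every gene the order is bearing, other, cKO, for Isg15 at 2193, 404 and 18.0.

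Genes whose counts per cell went with a ligand were ranked by Pearson's r of log counts, as a description across cells of 1 library that share its free RNA and differ in depth. For Ifnb1 over 961 control Epcam cells and 9710 genes the highest were Gbp5 (0.50), Cxcl10 (0.47), Ifit3b (0.44), Ifit1 (0.42), Ifit3 (0.41), Polr2g (0.41), Isg15 (0.41) and Rsad2 (0.40). Gbp5 is in the interferon gamma list, and Cxcl10, Ifit1, Ifit3, Isg15 and Rsad2 are in the type I response list. Ifit3b and Polr2g, an RNA polymerase II subunit gene, are in neither list. The share of such genes among all those ranked was not taken. For Ifne no gene exceeded 0.18 (Btbd19), which in counts this sparse is no finding. For Ifng, Ccl4, a chemokine of activated T and NK cells, had 0.61 over 427 cKO lymphoid cells, of which 8 had Ifng, and Glmp had 0.37 over 155 control ones, of which 5 did.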

How the data were processed

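Single-cell 3-prime libraries of 2 groups, 1 library each of 3 pooled mice, were analysed. The authors deposited unfiltered tables of UMI counts per gene and barcode, made with Cell Ranger 6.1.1 on mm10 per the submitters' processing notes (the file headers name version 4). No other step is given in the sources used here. Library totals were 45035801 UMIs (control) and 57145553 (cKO), with 83.7% and 92.6% of UMIs in cells.

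From the counts, UMIs were summed per class and library and given per 1000000 (CPM), with exact Poisson 95% intervals for levels, Clopper-Pearson intervals for shares and conditional binomial intervals for ratios. These cover counting error only. Ratios need 10 UMIs in both libraries together. A class at 0 enters as a floor of 3 UMIs per library and gives a bound at that floor, which is not a 95% limit. Called means past 2-fold, and in counts of called genes a side at 0 was set to 0.5 UMIs. Shares were also taken after thinning each cell to 1000 UMIs, which left out 163 and 308 shallower cells. Cells with a doublet score over 0.25 (27 and 65, 0.739% and 1.31%) were kept and left out as an alternative. TMM factors came from edgeR 4.0.16 in R 4.3.3 and the rest from Python 3.11.15 with numpy 2.4.6, scipy 1.17.1, pandas 2.3.3, scanpy 1.11.5 and matplotlib 3.10.9. The ratio code was tested on simulated data.

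Genes named are the 9 members, pathway lists (inducers, transducers, of which 1 gene is not reported here, brakes, both response lists, partners of Il10rb, regulators of Ifng, Esr1 and Pgr), other interferon genes, and the 8 or 5 genes most correlated with each ligand. The members and lists were chosen with earlier results of these data known. Alternatives changed the cell filters, gates, doublets, thinning, cell weights, free RNA, top cells and scaling. Of 32285 gene IDs, 99.6% matched GENCODE M21.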

Additional observations from a re-analysis of the deposited data

Results flagged for a closer look

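Barcodes with over 100 UMIs but under 500 genes entered neither the cells nor the cell-free set. In the library labelled control they held ligand transcripts above the floor of 3 UMIs. There were 7984 such barcodes in control and 5632 in cKO. Ifnb1 had 26 UMIs in 17 of the control barcodes (8.83 CPM) and 1 UMI in cKO. Ifne had 4 UMIs in 4 control barcodes and 0 in cKO. Ifng had 13 UMIs in control, all in 1 barcode of 936 UMIs and 460 genes with 1 UMI of a lymphoid marker, and 1 UMI in cKO.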

How the results depend on the processing

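No paired analysis was possible because each group is 1 library. Over all alternatives, 658 of 820 class levels, 424 of 484 log2 ratios, 37 of 43 UMI percentages and 508 of 552 thinned shares stayed within their counting interval. The computed log2 value had the opposite sign to the reported one in 47 cases, of which 36 belong to ratios whose interval holds 0, such as Ifne in Epcam and Ifng in lymphoid cells. The cause of the changes was not tested. The other 11 were Ifnb1 in C1qa cells (-2.98, other gates admitted), Ifnar1 in Epcam cells (-0.018 with at least 2 gate UMIs, -0.18 in the stricter class, -0.22 with TMM), Ifnar1 in C1qa cells (-0.30, thinned), Ifngr1 in Epcam cells (-1.20 with at least 2 gate UMIs, -1.50 in the stricter class, -0.26 with TMM, -0.24 without cells of 2 lymphoid markers), Ifngr1 in stromal cells (-0.16, free RNA subtracted) and Ifnlr1 in Epcam cells (1.08, thinned, an upper bound since cKO kept 0 UMIs, which fixes no sign). The Epcam percentage of control Ifnb1 was 87.0 with at most 10% mitochondrial UMIs, 79.2 with at least 2 gate UMIs, 89.1 with other gates admitted and 89.0 by the gate with most UMIs. The lymphoid percentage of cKO Ifng was 5.43 with at least 2 gate UMIs and 37.2 in the wider lymphoid class. In Epcam cells the log2 bound of Ifnb1 was -1.52 after thinning, Ifne was -2.33 as a mean over cells, 1.24 after thinning (a bound) and -0.81 without the top cell, Ifngr2 was -1.29 with TMM, and control Ifnlr1 was 13.0 CPM as a mean over cells. Lymphoid Ifngr1 was 1087 CPM in control with other gates admitted. In cKO it was 1233 with other gates admitted, 1760 with at least 2 gate UMIs, 1736 by the gate with most UMIs, 2052 in the wider class, 1975 as a mean over cells and 2026 after thinning.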

Other observations

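Barcodes with at least 500 genes but over 20% mitochondrial UMIs, 283 in control and 46 in cKO, were left out of the cells. In control they held 54 UMIs of Ifnb1 in 18 barcodes (29.5 CPM), 11 of Ifne in 8 and none of Ifng. In cKO they held 0 UMIs of all 3 ligands and 45 of Ifngr1 in 14 barcodes.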
